A study of Mus musculus with 18 samples.

Results

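The 10 genes described here build, organize and crosslink the elastic fibres and collagen of white fat: Eln, Fbn1, Fbln2, Fbln5, Mfap5, Emilin1, Lox, Loxl1, Loxl2 and Sparc. They were taken by symbol from 24091 symbols measured in epididymal white fat (eWAT, the visceral depot of these mice) and from 51826 identifiers measured in inguinal white fat (iWAT, a subcutaneous depot), and all 10 were found in both. RNA sequencing covered 18 samples of C57BL/6 mice in 6 groups of 3: eWAT at ZT12 from shiftwork and from control mice, eWAT at ZT3 from shiftwork and from control mice, and iWAT at ZT3 from shiftwork and from control mice. ZT counts hours after lights-on of the regular cycle, so ZT3 lies in the early light phase and ZT12 at lights-off. In the shiftwork groups each week held 4 regular days and 3 days with light and dark reversed, for 24 weeks, while control mice stayed on the regular cycle, 12 h light to 12 h dark, throughout. The labels name no mutation or transgene and do not state age or sex, although epididymal fat is a male depot. They do not say whether the 3 samples of a group came from separate animals, so p-values measure only the spread between these samples. The sample descriptions end in numbers that differ within each group, and what the numbers stand for is not given. Some recur in ZT12 eWAT and ZT3 iWAT samples of the same schedule, and whether these share animals is not said.

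Elastic fibres form when tropoelastin, the product of Eln, is laid onto a scaffold of fibrillin microfibrils and crosslinked through its lysines. Fbn1 encodes fibrillin-1 of that scaffold, Mfap5 a glycoprotein bound to microfibrils, Emilin1 a glycoprotein at the border of elastin and microfibrils, and Fbln2 and Fbln5 the fibulins that join elastin to its neighbours. Lox, Loxl1 and Loxl2 encode copper-dependent amine oxidases that start the crosslinking of elastin and collagen, and Sparc encodes a secreted glycoprotein that binds collagen. In fat this matrix surrounds the adipocytes and the vessels, and its stiffness is known to limit how far adipocytes can enlarge.

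Depth and the make-up of the libraries set the limits of every value below. Assigned reads ran from 20352008 to 72276733 per library in eWAT and from 28544338 to 55639501 in iWAT, and every member was far above the floor of 3 reads, which is at most 0.147 CPM (counts scaled to a common library total). The adipocyte marker Adipoq was high throughout, with CPM from 864 to 3597 across eWAT libraries and from 1016 to 2809.8 across iWAT libraries. In eWAT, replicates 1 and 3 of the ZT3 controls also held transcripts of vas deferens (Akr1b7 at 9067 and 9308 CPM, against 8.46 CPM in replicate 2) and of smooth muscle (Myh11 at 5085 and 3212 CPM, against 78.9 CPM in replicate 2). Replicate 3 of the ZT3 shiftwork eWAT held spermatid transcripts (Prm2 at 1182 CPM, against 0.476 and 1.12 CPM in replicates 1 and 2). In iWAT, shiftwork replicate 1 held skeletal muscle transcripts (Ckm at 9406 CPM). Shiftwork replicate 2 held fewer (Ckm at 125 CPM), against 20.3 CPM in replicate 3 and 8.09 to 13.9 CPM in controls. Control replicates 1 and 2 of iWAT held B cell transcripts (Cd79a at 118 and 241 CPM). Fits without these 3 eWAT libraries are given where they bear on a result. They leave the ZT3 controls with replicate 2 alone, so each comparison with that group then rests on 1 library, assumed to vary like the other groups, and its SE and p come from the spread of those groups. In these fits 0 members were called in any of the 6 comparisons that use eWAT. In bulk tissue, fewer cells of a type and less RNA per cell cannot be told apart.

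Sparc was by far the most abundant of the 10 genes in every library. Per length, its level in eWAT was 1478, 1520.1 and 1734 FPKM (fragments scaled to gene length and depth by the authors) in ZT12 shiftwork libraries and 1722, 1710.2 and 1770.5 FPKM in ZT12 control libraries. At ZT3 it was 1113, 1113 and 1009.8 FPKM in shiftwork libraries and 867, 1031 and 671 FPKM in control libraries. Each ZT3 library lay below every ZT12 library. Sparc alone made up 88 to 93.6% of the summed level of the 10 genes in eWAT and 78.7 to 91% in iWAT. Among all genes of a library, ordered from the highest level per length, it stood at places 6, 6 and 7 in ZT12 controls and at places 18, 19 and 22 in ZT3 controls. In shiftwork eWAT the places overlapped, at 9, 8 and 8 at ZT12 and 16, 16 and 8 at ZT3. In iWAT its level was 1739, 2336 and 1632 RPKM (reads scaled to gene length and depth by the authors) in shiftwork libraries and 1204, 991 and 1196 RPKM in control libraries.

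**Figure D1:**
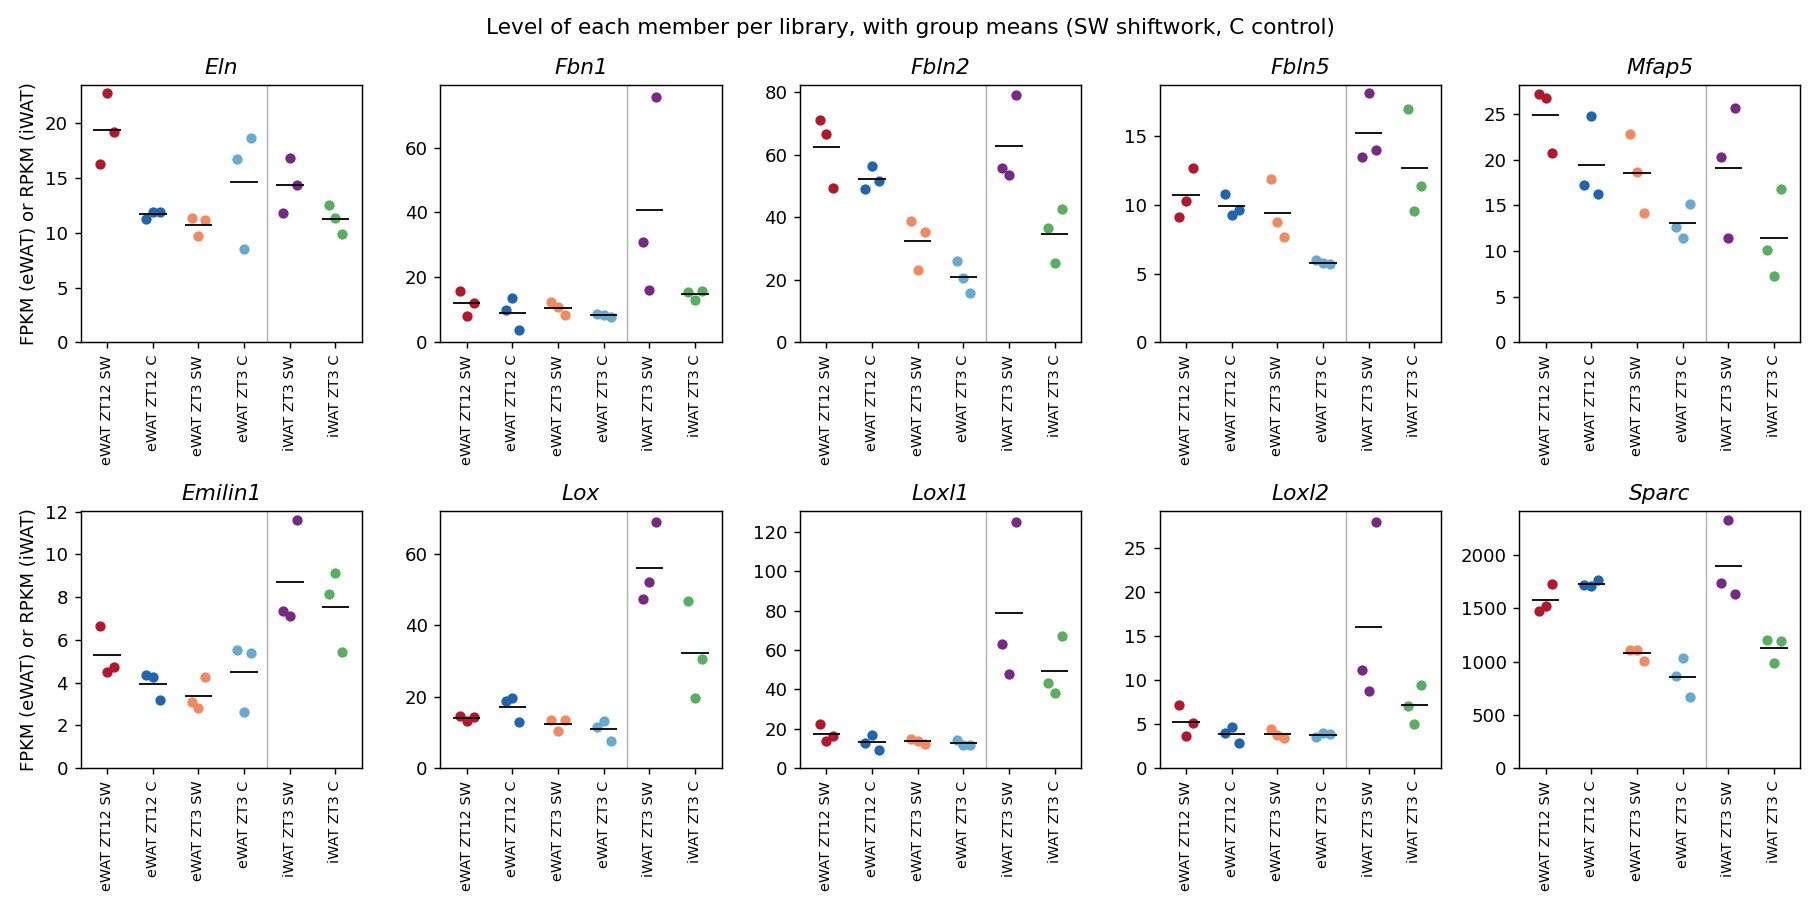
Level per length of each of the 10 genes in every library, as FPKM in eWAT (left of the line in each panel) and RPKM in iWAT (right of it), with a bar at the mean of each group of 3. Sparc lay between 1478 and 1770.5 FPKM at ZT12 and between 671 and 1113 FPKM at ZT3, and the 2 scales were made separately, so depots are to be read side by side only.

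Below Sparc the order of the levels was less sharp. Fbln2 was second in all 4 eWAT groups, with group means of 62.3 ± 11.4 FPKM at ZT12 in shiftwork and 52.3 ± 3.72 FPKM at ZT12 in controls (SD, n = 3 each). At ZT3 its mean was 32.4 ± 8.21 FPKM in shiftwork and 20.8 ± 5.2 FPKM in controls. Its libraries did not overlap those of the third gene except in ZT3 controls, where Eln came next. Eln, Mfap5, Lox and Loxl1 held the middle places, with eWAT group means between 10.8 and 24.9 FPKM, and their libraries overlapped from one gene to the next in each eWAT group. Fbn1 and Fbln5 followed, and Emilin1 and Loxl2 were lowest, with eWAT group means of 3.39 to 5.3 FPKM for Emilin1 and 3.8 to 5.27 FPKM for Loxl2; these 2 lowest genes overlapped in every eWAT group. In iWAT Loxl1 stood second instead, with a mean of 78.6 ± 40.8 RPKM in shiftwork and 49.5 ± 15.4 RPKM in controls, although its libraries overlapped those of Fbln2, and Lox followed Fbln2 in both groups. Since the FPKM and RPKM tables were normalized separately, no test was made of a level between depots.

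The promoters of the 2 members that changed by the test below are shown because these were the genes that rose at ZT12; RefSeq's table on GRCm38.p6 (250 bases before to 50 after the start site) held promoters for 5 of the 10 genes. Capitals mark the matches to 5 short motifs, sought on both strands. They were the E-box bound by clock factors, with the letters CACGTG, the site of AP-1 factors, with the letters TGANTCA, the site of SMAD factors, with the letters CAGACA, the TATA box, with the letters TATAAA, and the GC box, with the letters GGGCGG. The sequences read 5′ to 3′ on the gene's strand, for Sparc at chr11:55420031-55420330 (minus strand) and for Fbln2 at chr6:91212514-91212813 (plus strand).
Sparc: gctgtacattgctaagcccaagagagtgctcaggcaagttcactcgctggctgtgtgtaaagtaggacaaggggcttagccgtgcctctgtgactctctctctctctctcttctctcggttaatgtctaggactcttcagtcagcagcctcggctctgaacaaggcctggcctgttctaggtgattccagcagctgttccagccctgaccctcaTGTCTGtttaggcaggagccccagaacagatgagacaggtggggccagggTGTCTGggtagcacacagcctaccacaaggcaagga
Fbln2: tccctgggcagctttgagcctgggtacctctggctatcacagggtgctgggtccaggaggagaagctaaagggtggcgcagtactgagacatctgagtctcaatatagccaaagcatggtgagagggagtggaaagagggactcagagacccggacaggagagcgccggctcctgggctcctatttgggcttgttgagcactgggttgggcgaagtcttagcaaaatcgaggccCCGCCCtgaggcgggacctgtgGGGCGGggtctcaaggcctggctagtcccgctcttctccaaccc
The Sparc window held 2 SMAD matches, both written here as TGTCTG, the reverse complement, at -36 and 14 from the start site. The Fbln2 window held 2 GC boxes, at -16 (as CCGCCC) and 6. The windows shared none of these motifs, and neither held an E-box, AP-1 or TATA match. Of the 32851 promoters in the table, 21% held a SMAD match and 35.7% a GC box, 7.15% an E-box, 7.81% an AP-1 match and 13.6% a TATA box. A match describes the letters only.

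The first question was whether the genes differ with the time of day in eWAT under the regular schedule. Fbln2 and Sparc rose at ZT12, with estimates above 2-fold, for Sparc only just, and Fbln5, Mfap5 and Lox were higher without passing the test. Without the 3 libraries that held other tissues' transcripts, only replicate 2 of the ZT3 controls was left. The log2 fold changes were then 1.19 for Fbln2, 0.6 for Sparc, 0.63 for Fbln5, 0.62 for Mfap5 and 0.22 for Lox. A gene was called where its p-value, adjusted by the Benjamini-Hochberg method over all genes tested, was under 0.05. By that rule 2 of the 10 members were called higher and 0 lower, where 2.93% of all 15141 genes tested were called higher and 0.766% lower. Of the members 8 had a log2 fold change above 0, against 48.7% of all genes tested; 5 had an unadjusted p under 0.05 and were higher, against 13% of all genes; and the median was 0.37 over the 10 members and -0.01 over all genes tested.

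Fbln2, a fibulin that binds both fibrillin-1 and tropoelastin, had 306, 351 and 320.2 CPM in ZT12 control libraries, against 148, 138 and 95.7 CPM in ZT3 control libraries. Every ZT12 library lay above every ZT3 library, and the log2 fold change was 1.35 ± 0.223 (SE; edgeR's quasi-likelihood test, adjusted p = 0.0193). Sparc had 6229.9, 6167 and 6399 CPM in ZT12 control libraries, against 2853, 4004 and 2368 CPM in ZT3 control libraries. The ZT12 libraries lay close together and above the spread-out ZT3 libraries, with a log2 fold change of 1.03 ± 0.227 (adjusted p = 0.0404). These 2 calls rested on single libraries. Fbln2 was no longer called when ZT3 control replicate 3 or any 1 of the 3 ZT12 control replicates was left out (1.15 to 1.37, adjusted p of 0.0533 to 0.102), and Sparc lost its call in 14 of 19 alternative fits (adjusted p up to 0.182). Without the 3 libraries that held other tissues' transcripts, with ZT3 control replicate 2 alone as its group, the log2 fold change was 1.19 ± 0.298 for Fbln2 (adjusted p = 0.065) and 0.6 ± 0.159 for Sparc (adjusted p = 0.0707). Replicate 2 had the highest Sparc of the ZT3 controls. The summed level of 8 adipocyte markers was 21449 to 27635 CPM in ZT12 controls and 14212 to 23426 CPM in ZT3 controls, with 7 of 8 above 0 and 0 called, and its part in the Sparc value was not tested.

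Fbln5, the fibulin that brings tropoelastin and Loxl1 to microfibrils, had 99.8, 85.5 and 88.4 CPM in ZT12 control libraries, against 50.4, 57.2 and 51.3 CPM in ZT3 control libraries. The groups did not overlap, yet the log2 fold change of 0.78 ± 0.207 stopped short of the threshold (adjusted p = 0.0637). Of 19 alternative fits 4 called Fbln5, DESeq2 and limma on the authors' log2 FPKM among them (adjusted p = 0.00753 and 0.0399), and 15 did not. With the replicate number as a block, edgeR's adjusted p was 0.116. Mfap5 had 33, 47.6 and 31.2 CPM in ZT12 control libraries, against 22.2, 23.4 and 28.7 CPM in ZT3 control libraries. Its groups were also apart, with a log2 fold change of 0.59 ± 0.237 (adjusted p = 0.177). In all, 4 of the 10 members were higher at ZT12 with no overlap of libraries, where 19.3% of all genes tested were. Lox, whose product acts on both elastin and collagen, had 127, 133 and 86.4 CPM in ZT12 control libraries, against 71.7, 96 and 50 CPM in ZT3 control libraries. Its groups overlapped and its log2 fold change was 0.67 ± 0.234 (adjusted p = 0.127). Against ZT3 control replicate 2 alone, in the fit without the 3 libraries, the Lox value was 0.22.

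The other oxidases and the scaffold showed no such difference. Fbn1 had 194, 262 and 74 CPM in ZT12 control libraries, against 154, 172 and 148 CPM in ZT3 control libraries. Replicate 3 at ZT12 was far below the other libraries, and the log2 fold change was 0.16 ± 0.405. Loxl1 and Loxl2 had log2 fold changes of 0.08 ± 0.231 and 0.02 ± 0.266, with overlapping groups. For Loxl2 the sign turned in 11 of 19 alternatives, so no direction can be given.

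Eln and Emilin1 were the 2 members with a log2 fold change below 0. Eln had 59.4, 62.5 and 62.4 CPM in ZT12 control libraries, against 79.7, 48 and 95.4 CPM in ZT3 control libraries. Its 2 high ZT3 values came from replicates 1 and 3, the libraries with vas deferens and smooth muscle transcripts, and the log2 fold change was -0.28 ± 0.219 (adjusted p = 0.522). Emilin1 showed the same arrangement, with 25, 24.6 and 18.2 CPM in ZT12 control libraries, against 29, 16.1 and 30.4 CPM in ZT3 control libraries. Set against replicate 2 alone, the lowest ZT3 control for both genes, the fit without the 3 libraries gave 0.31 ± 0.186 for Eln (adjusted p = 0.345) and 0.44 ± 0.254 for Emilin1 (adjusted p = 0.326), so no direction can be given for either. The summed level of 10 smooth muscle markers ran from 702 to 769 CPM in ZT12 controls and from 516 to 10949.6 CPM in ZT3 controls, and 4 of these markers were called lower at ZT12. Across the 12 eWAT libraries, after subtracting group means, the log2 level of Myh11 had a Pearson r of 0.85 with Eln and of 0.6 with Emilin1. The lowest r among the members were those of Sparc, at -0.69, and Lox, at -0.59. Over the 6 iWAT libraries the centred r with Myh11 was 0.86 for Eln and -0.01 for Emilin1. These libraries differ in depth and tissue make-up, and the part of smooth muscle in the levels of the members was not tested beyond these values.

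**Figure D2:**
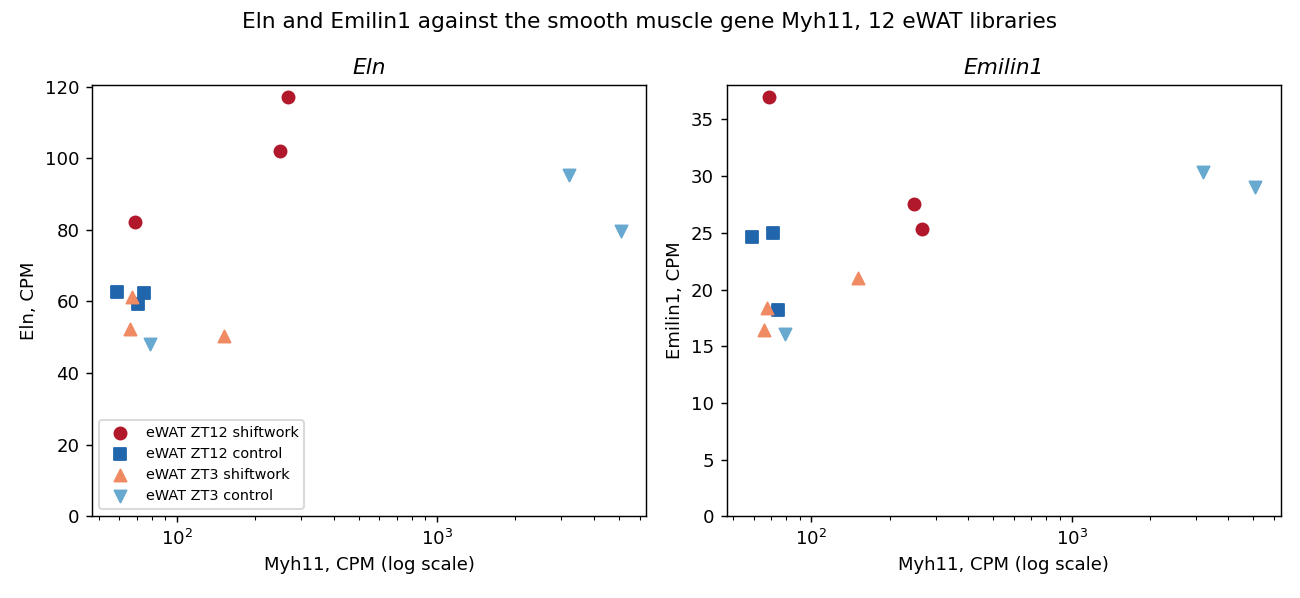
CPM of Eln (left) and Emilin1 (right) against CPM of the smooth muscle gene Myh11 on a log axis, 1 point for each of the 12 eWAT libraries, with a symbol for each group. The 2 ZT3 control libraries with Myh11 at 3212 and 5085 CPM had Eln at 95.4 and 79.7 CPM, while the third had Eln at 48 CPM with Myh11 at 78.9 CPM; the ZT12 shiftwork libraries held Eln at 82.1 to 117 CPM with Myh11 at no more than 267 CPM.

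Genes of neighbouring pathways were counted in the same fit. Of 10 other genes for crosslinking and collagen processing, all 10 had a log2 fold change above 0 at ZT12 in controls and 2 were called higher. Plod1, a lysyl hydroxylase that prepares collagen lysines for crosslinking, had 157, 164 and 158 CPM in ZT12 control libraries, against 90.4, 105 and 84.2 CPM in ZT3 control libraries (log2 fold change 0.78 ± 0.155, adjusted p = 0.0307). Its groups were apart, but Plod1 lost its call in 8 of 19 alternative fits, with adjusted p up to 0.156 (without ZT3 control replicate 3); against replicate 2 alone, without the 3 libraries, its log2 fold change was 0.56 ± 0.107 (adjusted p = 0.0332). Bmp1, the procollagen C-proteinase that also activates pro-lysyl oxidase, had 90.7, 110.1 and 87.4 CPM in ZT12 control libraries, against 64.4, 66.6 and 61.9 CPM in ZT3 control libraries (0.58 ± 0.0965, adjusted p = 0.0195). The groups were apart here too, and the call was lost in 5 of 19 alternative fits, the one without the 3 libraries among them (0.49 ± 0.14, adjusted p = 0.09).

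Among 7 elastin-degrading proteases, 6 were above 0 at ZT12 in controls, with 1 called higher and 1 called lower. Ctsk, the cysteine protease cathepsin K, had 41.3, 62.5 and 34 CPM in ZT12 control libraries, against 19.7, 20.6 and 13.3 CPM in ZT3 control libraries (1.36 ± 0.257, adjusted p = 0.0263). Mmp9, the gelatinase B gene, had 8.38, 4.36 and 4.89 CPM in ZT12 control libraries, against 33.1, 9.63 and 25.4 CPM in ZT3 control libraries (-1.95 ± 0.441, adjusted p = 0.0428). Its 2 high values again came from ZT3 control replicates 1 and 3, and of 19 alternative fits Ctsk lost its call in 8 and Mmp9 in 14. Neither protease was called without the 3 libraries (Ctsk 1.11 ± 0.325, adjusted p = 0.0957; Mmp9 -0.76 ± 0.34, adjusted p = 0.219). Of 6 macrophage markers, all 6 were above 0 at ZT12 in controls and 2 were called; their summed level was 729 to 1390.4 CPM at ZT12 and 452 to 570.3 CPM at ZT3, and its part in these values was not tested. Of 12 other elastic fibre genes (8 above 0), 6 other SPARC family genes (1 above 0) and 6 fibrillar collagen chains (5 above 0), 0 were called, while edgeR's unadjusted p was under 0.05 for 3, 2 and 2 of them. The smallest p in these lists belonged to Ltbp3, which encodes a latent TGF-beta binding protein of microfibrils (0.83 ± 0.224, adjusted p = 0.0682), to Fstl1 (0.75 ± 0.217, adjusted p = 0.0792) and to Col5a2, a chain of type V collagen (0.75 ± 0.249, adjusted p = 0.109). Without the 3 libraries the log2 fold changes were 0.35 for Ltbp3, 0.81 for Fstl1 and 0.32 for Col5a2.

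The same time difference was then read under the rotating schedule. All 10 members had a log2 fold change above 0 at ZT12 in shiftwork eWAT, where 46.4% of all 15141 genes tested did, but 0 members and 0 genes (0%) were called by edgeR. Its unadjusted p was under 0.05 for 2461 genes in either direction; 4 members were among those higher, against 5.81% of all genes. DESeq2 called 288 genes, among them Eln and Fbln2 (adjusted p = 0.0266 and 0.0112), and limma on log2 FPKM called 0. The median log2 fold change was 0.43 over the members and -0.03 over all genes.

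Fbln2 had 424, 404 and 310.4 CPM in ZT12 shiftwork libraries, against 248, 148 and 188 CPM in ZT3 shiftwork libraries. The groups did not overlap (0.95 ± 0.221, adjusted p = 0.28). Eln had 82.1, 117 and 102 CPM in ZT12 shiftwork libraries, against 61.3, 52.3 and 50.2 CPM in ZT3 shiftwork libraries. All 3 evening values were above all 3 morning values (0.86 ± 0.221, adjusted p = 0.28), and without the 3 libraries the log2 fold change was 0.8 ± 0.147 (adjusted p = 0.0542). Sparc had 5143, 5376 and 6351 CPM in ZT12 shiftwork libraries, against 4156, 4123 and 3108 CPM in ZT3 shiftwork libraries (0.56 ± 0.225, adjusted p = 0.285). Emilin1 had 37, 25.3 and 27.5 CPM in ZT12 shiftwork libraries, against 18.4, 16.4 and 21 CPM in ZT3 shiftwork libraries (0.67 ± 0.254, adjusted p = 0.28). With Fbln2, Eln, Sparc and Emilin1, 4 of the 10 members were thus higher with no overlap of libraries, against 9.31% of all genes tested. The 6 remaining members had log2 fold changes of 0.16 to 0.45, with overlapping groups. Smooth muscle markers were above 0 for 9 of 10 genes in this comparison, with summed levels of 612 to 1248 CPM at ZT12 and 462 to 752 CPM at ZT3, and macrophage markers for 6 of 6.

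In the neighbouring lists 0 genes were called by edgeR in shiftwork eWAT. Collagen chains were above 0 for 6 of 6 genes, proteases for 7 of 7, crosslinking genes for 9 of 10 and other elastic fibre genes for 9 of 12. Efemp2, the fibulin-4 gene whose product binds lysyl oxidase, had the smallest p of its list (0.85 ± 0.222, adjusted p = 0.28). In the other lists it was Bmp1 (0.44 ± 0.0963, adjusted p = 0.28), Mmp2, the gelatinase A gene (0.68 ± 0.175, adjusted p = 0.28), Col1a1 (0.66 ± 0.186, adjusted p = 0.28) and Fstl1 (0.5 ± 0.216, adjusted p = 0.298).

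Whether the time difference itself depended on the schedule was tested as an interaction, (ZT12 minus ZT3 in shiftwork) minus (ZT12 minus ZT3 in control). edgeR called 0 of 15141 genes (0%), with 1535 at an unadjusted p under 0.05; 2 members were among those with a positive interaction, against 4.35% of all genes. Eln had the largest value of the members, 1.14 ± 0.311 (adjusted p = 0.419), and Emilin1 came next at 0.83 ± 0.358 (adjusted p = 0.487). Both depend on the ZT3 controls. DESeq2 called Eln (1.15 ± 0.325, adjusted p = 0.037), and edgeR did so when ZT3 control replicate 2, the ZT3 control library with the least vas deferens transcripts (8.46 CPM of Akr1b7), was left out (1.39 ± 0.203, adjusted p = 0.0146). Without the 3 libraries, with replicate 2 as the only ZT3 control, the value for Eln was 0.49 ± 0.231 (adjusted p = 0.38). Of the neighbouring lists, Mmp9 had the smallest p (2.18 ± 0.61, adjusted p = 0.419), and without the 3 libraries it was 1.24 ± 0.444 (adjusted p = 0.281). Sparc and Fbln2 had interactions of -0.47 ± 0.317 and -0.41 ± 0.31, each within 2 SE of 0, so a difference of their time course between schedules was not detectable at this spread.

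**Figure D3:**
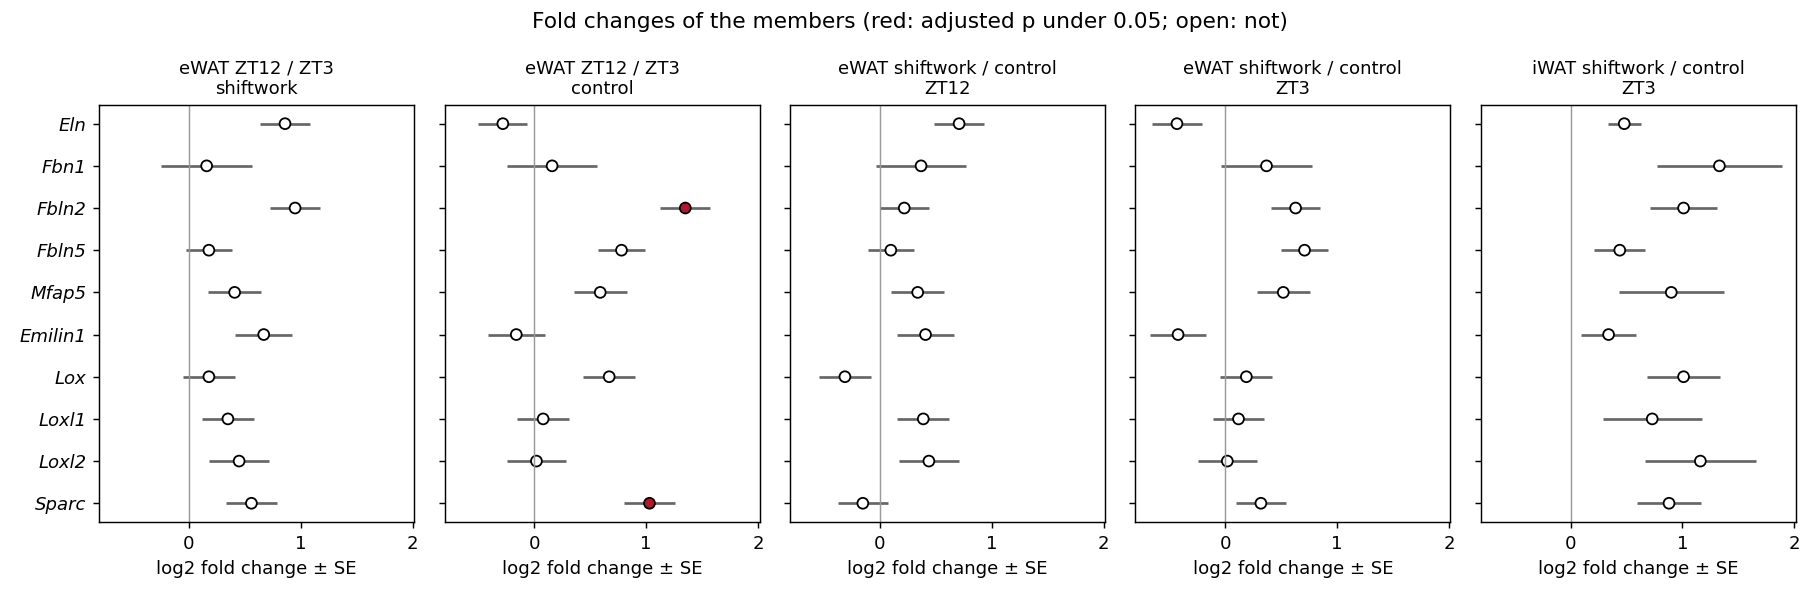
Log2 fold change ± SE of each gene in 5 comparisons: ZT12 over ZT3 in shiftwork and in control eWAT, shiftwork over control in eWAT at ZT12 and at ZT3, and shiftwork over control in iWAT. Red points have an adjusted p under 0.05, which only Fbln2 and Sparc reached, both in the ZT12 over ZT3 comparison of controls.

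The second question was the effect of the rotating schedule at a fixed time. In eWAT at ZT12 edgeR called 0 of 15141 genes (0%), with 355 at an unadjusted p under 0.05; limma on log2 FPKM called 0 and DESeq2 called 7, with 0 members. Of the members 8 lay above 0, against 49% of all genes tested, and 1, Eln, had an unadjusted p under 0.05 and was higher, against 1.6% of all genes. Eln had 82.1, 117 and 102 CPM in shiftwork libraries, against 59.4, 62.5 and 62.4 CPM in control libraries. The groups were apart and the control values close together (0.71 ± 0.22, adjusted p = 1). Emilin1, with 37, 25.3 and 27.5 CPM in shiftwork libraries and 25, 24.6 and 18.2 CPM in control libraries, was also apart, by a narrow gap (0.41 ± 0.253, adjusted p = 1). These were 2 of 10 members higher with no overlap, against 5.67% of all genes. Myh11 at this time was 68.8, 267 and 248 CPM in shiftwork libraries and 71.1, 59 and 74.7 CPM in control libraries, and its part in the Eln values was not tested. Fbln1, a fibulin found in many basement membranes and elastic fibres, had the smallest p of the other elastic fibre genes (0.9 ± 0.379, adjusted p = 1). Fbn1, Loxl1 and Loxl2 had log2 fold changes of 0.37 ± 0.406, 0.39 ± 0.231 and 0.44 ± 0.267, and Lox and Sparc of -0.31 ± 0.233 and -0.15 ± 0.224, all with overlapping groups.

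In eWAT at ZT3 edgeR also called 0 genes (0%), with 2847 at an unadjusted p under 0.05. Of the members 8 lay above 0, against 56.9% of all genes tested, and 2 had an unadjusted p under 0.05 and were higher, against 12.8% of all genes. DESeq2 called 629 genes, of which Fbln5 was the single member (0.69 ± 0.218, adjusted p = 0.0385), and limma on log2 FPKM called 0. Fbln5 had 114, 83.4 and 60.3 CPM in shiftwork libraries, against 50.4, 57.2 and 51.3 CPM in control libraries. Its lowest shiftwork value, from replicate 3, lay just above the highest control value (0.71 ± 0.207, adjusted p = 0.207), and it was the 1 member of 10 without overlap, where 7.13% of all genes were higher in this way. Fbln2 followed, with 248, 148 and 188 CPM in shiftwork libraries and 148, 138 and 95.7 CPM in control libraries (0.63 ± 0.22, adjusted p = 0.218). Mfap5 had 45.3, 37 and 23.3 CPM in shiftwork libraries, against 22.2, 23.4 and 28.7 CPM in control libraries, which overlapped through shiftwork replicate 3 (0.52 ± 0.237, adjusted p = 0.274). That library held the spermatid transcripts, and its Adipoq was 958 CPM, against 3500 and 3597 CPM in the other two. Eln and Emilin1 were the 2 members below 0, at -0.43 ± 0.22 and -0.42 ± 0.253. Without the 3 libraries, where 2 shiftwork libraries are set against control replicate 2 alone, the values were 0.22 ± 0.196 and 0.09 ± 0.265, so no direction can be given for either. Smooth muscle markers were below 0 for 10 of 10 genes in this comparison, with a median log2 fold change of -3.57. Of the neighbouring genes Mmp9 had the smallest p (-1.75 ± 0.438, adjusted p = 0.194), and Emilin2, a relative of Emilin1, was the first among the other elastic fibre genes (1.22 ± 0.434, adjusted p = 0.218); collagen chains were above 0 for 2 of 6 genes.

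In iWAT at ZT3 all 10 members were higher on average in shiftwork, where 51.8% of all 16387 genes tested were, but limma called 0 genes (0%), with 1094 at an unadjusted p under 0.05. Of the members 4 were higher at that level, against 3.58% of all genes. The median log2 fold change was 0.89 over the members and 0.02 over all genes tested, and no member turned below 0 in any of 13 alternatives. In TMM-scaled CPM, Eln, Fbln2, Lox and Sparc did not overlap between the groups: 4 of 10 members, against 6.93% of all genes. edgeR on the recovered reads called 0 genes, and DESeq2 called 451, of which Sparc was the single member (0.87 ± 0.238, adjusted p = 0.0143). Leaving out control replicate 3 gave 825 calls by limma, with 0 members among them.

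Sparc had 7547, 8724 and 6300.1 CPM in shiftwork libraries, against 4014, 3364 and 4896 CPM in control libraries. The lowest shiftwork library lay well above the highest control, with a log2 fold change of 0.88 ± 0.284 (limma, adjusted p = 0.688). The authors' deposited table of this comparison gave Sparc a log2 fold change of 0.861 with an adjusted p of 0.0352, and Sparc was the only one of the 10 genes under 0.05 there. That deposited table of the authors held 426 such lines of 29819, 110 higher and 316 lower. Lox had 262, 248 and 339 CPM in shiftwork libraries, against 198, 84.7 and 159 CPM in control libraries (1.01 ± 0.329, adjusted p = 0.688). Fbln2 had 406, 336 and 513 CPM in shiftwork libraries, against 204, 144 and 293 CPM in control libraries (1.01 ± 0.301, adjusted p = 0.688). For both genes the groups were apart, by a narrower gap than for Sparc. Eln had 109.5, 134 and 119 CPM in shiftwork libraries, against 88.9, 82.8 and 86.6 CPM in control libraries (0.48 ± 0.146, adjusted p = 0.688). In the authors' RPKM its groups overlapped, at 11.8, 16.8 and 14.4 RPKM in shiftwork libraries and 12.5, 11.4 and 9.91 RPKM in control libraries. Smooth muscle markers were above 0 for 9 of 10 genes here, 0 of them called. Their summed levels were apart, at 1028 to 2620.3 CPM in shiftwork and 427 to 757 CPM in controls. The highest sum was that of shiftwork replicate 1, the library with the most skeletal muscle transcripts. Myh11 overlapped, at 68.1, 115 and 100.2 CPM in shiftwork and 93.6, 67.3 and 66.3 CPM in controls. So did Acta2, at 164, 224 and 335 CPM in shiftwork and 209, 88.3 and 70.4 CPM in controls. The other markers are not given singly. Over the 6 libraries the centred level of Eln had r of 0.86 with Myh11. The part of smooth muscle in the Eln value was not tested.

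Fbn1, Loxl1 and Loxl2 had fold changes with wide errors, and their shiftwork libraries in iWAT lay far apart. Fbn1 had 429, 191 and 934 CPM in shiftwork libraries, against 165, 142 and 205 CPM in control libraries (1.33 ± 0.555, adjusted p = 0.688). Loxl2 had 69.3, 46.6 and 154 CPM in shiftwork libraries, against 33.5, 24.2 and 55.2 CPM in control libraries (1.16 ± 0.499, adjusted p = 0.688). Loxl1 had 239, 155 and 419.9 CPM in shiftwork libraries, against 126, 113 and 239 CPM in control libraries (0.73 ± 0.442, adjusted p = 0.691). Shiftwork replicate 3 was highest for all 3 genes and replicate 2 lowest, and replicate 2 overlapped the controls. Over the fits that left out 1 library, the log2 fold change of Fbn1 ranged from 0.76, without shiftwork replicate 3, to 1.91, without shiftwork replicate 2. Mfap5, Fbln5 and Emilin1 had log2 fold changes of 0.9 ± 0.469, 0.44 ± 0.226 and 0.34 ± 0.247, with overlapping groups.

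Collagen and its processing genes lay on the same side in iWAT. Fibrillar collagen chains were above 0 for 6 of 6 genes (median 1.01), crosslinking genes for 10 of 10 (median 0.71), other elastic fibre genes for 10 of 12 (median 0.44), proteases for 5 of 7 and SPARC family genes for 4 of the 5 that passed the filter on low values. Of these, 0 were called. The smallest p of any was that of Ctsl, the cathepsin L gene (0.93 ± 0.217, adjusted p = 0.688), and among collagen chains that of Col5a1 (1.03 ± 0.293, adjusted p = 0.688). Plod3, a further lysyl hydroxylase, had 250.5, 219 and 278 CPM in shiftwork libraries, against 122, 146 and 179 CPM in control libraries (0.75 ± 0.203, adjusted p = 0.688). Col1a1, the main chain of type I collagen, chosen after its values were seen, had 1743, 1231 and 6621 CPM in shiftwork libraries, against 919, 844 and 2330.3 CPM in control libraries, high in replicate 3 of each group. Fbn2, the fibrillin best known from developing tissue, was on the other side, at 0.191, 0.243 and 1.02 CPM in shiftwork libraries and 1.05, 1.22 and 1.16 CPM in control libraries (-1.55 ± 0.647, adjusted p = 0.688). Fibroblast and progenitor markers were above 0 for 7 of 8 genes, with summed levels of 2498 to 4252 CPM in shiftwork and 1779 to 3914 CPM in controls, skeletal muscle markers for 6 of 6 (133 to 49584 CPM, against 44.1 to 97.2 CPM in controls), and B cell markers for 0 of 6. The part of these cell types in the members' fold changes was not tested.

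The schedule's effect at ZT3 was set against itself between depots, as the difference of the 2 log2 fold changes (iWAT minus eWAT). limma called 3 of 14172 genes (0.0212%), with 0 members among them, and 9 of the 10 members lay above 0, where 50.5% of all genes tested did. Eln had the smallest p among the members and was the 1 member higher at an unadjusted p under 0.05, against 6.21% of all genes (0.87 ± 0.28, adjusted p = 0.304). Without eWAT ZT3 control replicate 2 it was called (1.15, adjusted p = 0.00896), and without the 3 libraries, with replicate 2 as the only eWAT control, it was 0.25 ± 0.232 (adjusted p = 0.764). Loxl2 and Fbn1 had the largest differences, 1.15 ± 0.55 and 1.01 ± 0.715 (adjusted p = 0.44 and 0.563). An effect of the schedule that differs between the depots was thus not shown for any member. Smooth muscle markers were above 0 for 10 of 10 genes in this difference, with a median of 3.55. Among the neighbouring genes Col5a1 had the smallest p (1.18 ± 0.395, adjusted p = 0.325).

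Within groups, the members did not vary as 1 block. After subtracting the group means in eWAT, Fbn1, Loxl1 and Loxl2 formed a tight trio over the 12 libraries, with a Pearson r of 0.94 for Fbn1 and Loxl1, 0.886 for Fbn1 and Loxl2, and 0.899 for Loxl1 and Loxl2. Each of the 3 followed Col3a1, the type III collagen chain, chosen after its values were seen, with r of 0.9, 0.92 and 0.91. With Col1a1 their r was lower, at 0.52, 0.53 and 0.48. With the fibroblast markers it was lower still, at 0.23, 0.22 and 0.37 for Dcn and 0.19, 0.14 and 0.36 for Pdgfra. In the 6 iWAT libraries the same centred values with Col3a1 were 0.88, 0.99 and 0.99. There they were 0.89, 0.97 and 0.98 with Col1a1, 0.65, 0.89 and 0.86 with Dcn, and 0.97, 0.96 and 0.97 with Pdgfra. In eWAT ZT12 control replicate 3, Fbn1 was at 74 CPM and Col3a1 at 668 CPM, both lowest of their group, and in iWAT shiftwork replicate 3, Fbn1 was at 934 CPM and Col3a1 at 9928 CPM, both highest of theirs. How far r rests on single libraries was not tested.

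**Figure D4:**
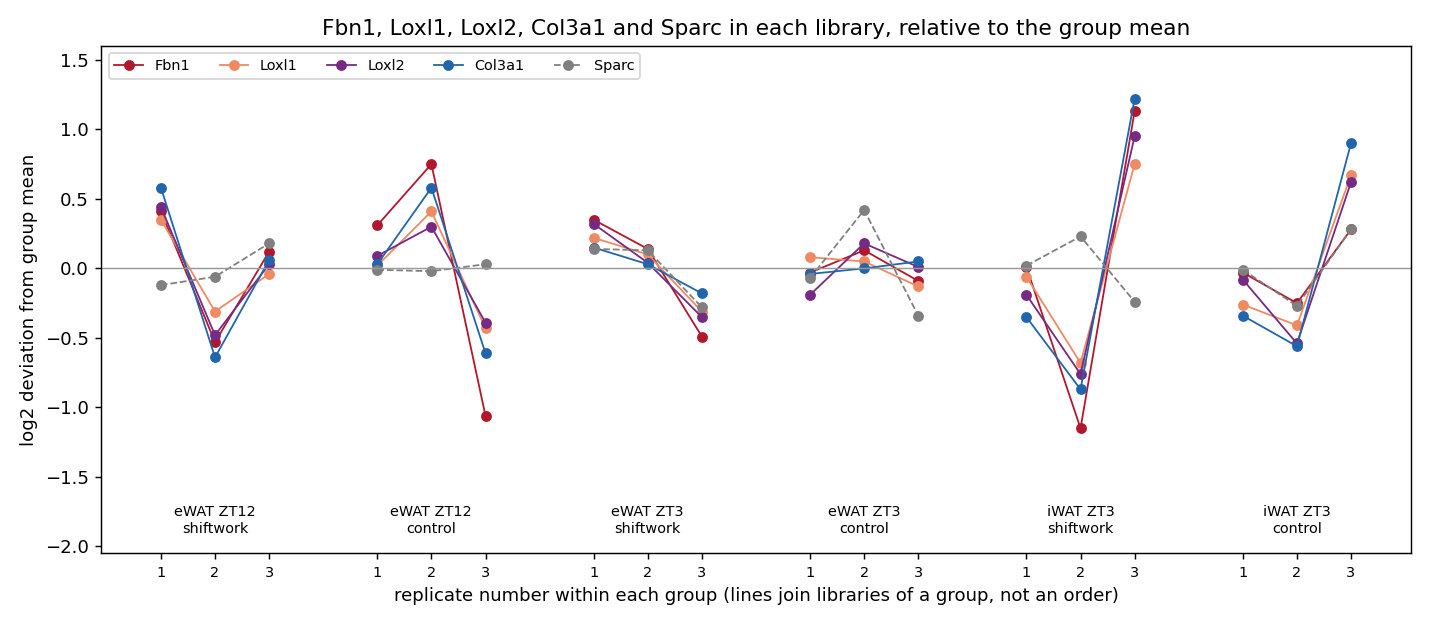
Log2 deviation of Fbn1, Loxl1, Loxl2, Col3a1 and Sparc from the mean of their group in each of the 18 libraries; replicate numbers run along the axis and lines join libraries of a group without implying an order. Fbn1 deviated by -1.06 in ZT12 control replicate 3 of eWAT and by 1.13 in shiftwork replicate 3 of iWAT, where Col3a1 deviated by -0.61 and 1.22 and Sparc by 0.03 and -0.24.

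Sparc varied in another way. Its centred level had r of 0.01 with Col3a1 and 0.88 with the adipocyte gene Adipoq over the 12 eWAT libraries, and of -0.1 and 0.92 over the 6 iWAT libraries. Its lowest eWAT value, 2368 CPM in ZT3 control replicate 3, came with the lowest Adipoq of all eWAT libraries, 864 CPM. Fbln5 was the member nearest to Sparc (r = 0.65), and Emilin1 ran against it (r = -0.794 in eWAT and -0.952 in iWAT). Before centring, Fbln2 was the member nearest to Sparc in eWAT (r = 0.852), while within groups their r was 0.195. Over all 45 pairs of members the centred r ranged from -0.794 to 0.94 in eWAT, with a median of 0.227, and from -0.952 to 0.979 in iWAT, with a median of 0.318. All these values come from libraries of a depot that differ in depth and in their mix of cells. The part of these differences in r was not tested.

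**Figure D5:**
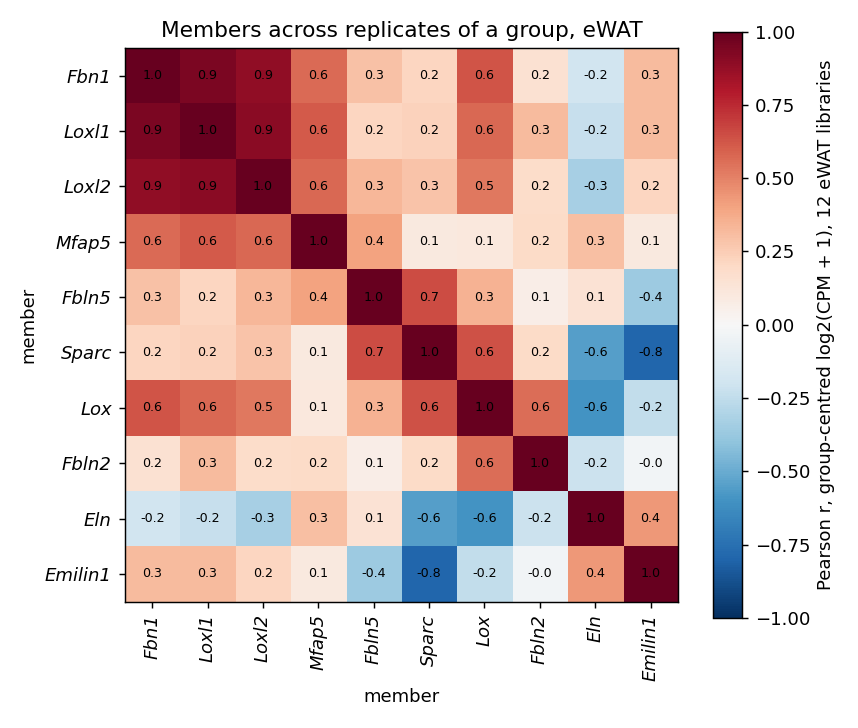
Pearson r between each pair of the 10 genes over the 12 eWAT libraries, on log2(CPM + 1) after subtracting group means, rounded to 1 decimal, from blue (-1) to red (1). Fbn1, Loxl1 and Loxl2 form the red corner at the top left, with r from 0.886 to 0.94, and Emilin1 against Sparc is the bluest pair at -0.794.

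The genes whose pattern was most like the mean of the 10 members were named by rank of Pearson r over the 12 eWAT libraries, among 10348 expressed genes that are no members. They were Slc44a1, a choline transporter (r = 0.98), Leprot, which overlaps the leptin receptor gene (0.945), Fstl1, a secreted glycoprotein of the SPARC family (0.942), Kdelc2 (0.935) and Lmo2, a transcription cofactor of blood and vessel cells (0.923). Over the 6 iWAT libraries their r with the same mean was 0.836, 0.683, 0.975, 0.87 and -0.666. Slc44a1, Fstl1 and Kdelc2 thus had r of 0.836 or more in both depots. Group means were not subtracted for these r, so differences between groups enter them. Fstl1 had 805, 449.9 and 1024 CPM in shiftwork iWAT libraries, against 273, 215 and 399 CPM in control iWAT libraries. Its log2 fold change there was 1.33 ± 0.373 (limma, adjusted p = 0.688).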

How the data were processed

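Members and gene lists were chosen with earlier results of these data known. Reads were single, of 51 cycles, from an mRNA kit, per the labels' protocols. STAR, HTSeq, DESeq2, limma and edgeR with builds mm10 and GRCm38 are named in the submitters' processing notes, without roles or versions. For eWAT the authors deposited whole-number read counts per gene and log2 FPKM values with a floor of -3.32. The FPKM used here are 2 to the power of those values, minus the amount that the floor stands for, and never below 0. The iWAT values that the authors deposited under the name of read counts are a normalized signal, since they are counts divided by a size factor: dividing by each library's step gave whole reads for 100% of 310956 values (tolerance 1e-06), from which CPM were computed. The authors also deposited RPKM and a table of their own iWAT comparison, with log2 fold changes and p-values, the tool being not given in the sources used here. The strand of counting is not given either, so reads of Eln, Fbn1, Lox and Loxl2 cannot be told apart from those of genes annotated in overlap on the opposite strand (GENCODE M21).

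eWAT counts were fitted with edgeR 4.0.16 (R 4.3.3; TMM, robust quasi-likelihood, all 12 libraries in 4 groups, filterByExpr with minimum count 10 and minimum total 15). iWAT was fitted with limma 3.58.1 (trend, robust) on log2(value + 1), genes at 10 or more in 3 libraries, and the depot difference with limma on log2(CPM + 1) over symbols in both tables. All 10 members passed every filter. Adjusted p-values are Benjamini-Hochberg over all genes of a fit. Within each depot no library was a copy of another (smallest chi-square per gene 18.3 over 81 pairs). Both fits were tested on simulated data. DESeq2 was version 1.42.0. Alternatives covered scaling, tool, filter, pseudocount, block, single libraries, and 3 libraries together. Named were all 10 members, every gene of 5 pathway lists (41 genes) with an adjusted p under 0.05 or else the smallest p (given for the lists described), the 5 genes most like the members' mean z-score (average log2 CPM of 3 or more, predicted genes and Riken clones left out), and each member's nearest member. Floors of 3 reads cover counting error only.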

Additional observations from a re-analysis of the deposited data

How the results depend on the processing

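Over 1240 alternative values of the members' fold changes, 1166 kept direction and side of the threshold, 13 passed it, 19 fell below it and 42 turned sign. In controls, ZT12 against ZT3 gave 559 calls by edgeR, 2168 by DESeq2, 320 without a filter and 298 with the replicate block; members called were 1 without a filter, 1 with the block and 0 without the 3 ZT3 libraries that held male tract or germ cell transcripts, a fit with 1 ZT3 control library left. Leaving out single libraries gave 1 to 2744 calls and 0 to 4 members: 1 without ZT12 control replicate 1, 3 without ZT3 control replicate 3, 4 and 121 without ZT12 control replicates 2 and 3, 144 and 155 without ZT12 shiftwork replicates 2 and 3, 173 and 1208 without ZT3 control replicates 1 and 2, and 276 and 2744 without ZT3 shiftwork replicates 1 and 3. In shiftwork, DESeq2 called 288 genes (2 members) and 75 genes were called without the 3 libraries. For shiftwork against control in eWAT at ZT3, DESeq2 called 629 (1 member), 9 were called without the 3 libraries, and 0 to 403 with single libraries left out, the most without ZT3 control replicate 2. At ZT12 DESeq2 called 7. The interaction gave 187 by DESeq2 (1 member), 7 without the 3 libraries and 0 to 186 (0 to 1 member) with single libraries left out, the most without ZT3 control replicate 2. In iWAT DESeq2 called 451 (1 member), and single libraries gave 0 to 825, the most without control replicate 3. The depot difference gave 3 calls, 1 with pseudocount 5, 1 by edgeR on counts and recovered reads, 0 with the block and 0 to 629 (0 to 1 member) with single libraries left out, the most without iWAT control replicate 3 and 218 without eWAT ZT3 control replicate 2.

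Turned signs were mostly near 0. Without the 3 libraries, ZT12 against ZT3 in controls gave Eln 0.31, Fbn1 -0.01, Emilin1 0.44, Loxl1 -0.01 and Loxl2 -0.2, and in shiftwork Fbn1 -0.05 and Fbln5 -0.03. At ZT3 shiftwork against control gave Eln 0.22, Emilin1 0.09, Lox -0.22 and Loxl2 -0.03, and the interaction Fbn1 -0.05. In controls limma on log2 FPKM gave Fbn1 -0.04 and Loxl2 -0.02, and Loxl2 was -0.02 with RLE scaling, -0.02 by DESeq2, -0.01 with only the groups compared and -0.01 with the block; the block also gave Loxl2 -0.01 at ZT3. With single libraries left out, values ranged in controls (ZT12 against ZT3) from -0.23 to 0.51 for Fbn1, -0.15 to 0.25 for Loxl1 and -0.14 to 0.18 for Loxl2, and in shiftwork from -0.06 to 0.37 for Fbn1 and -0.02 to 0.4 for Fbln5. Shiftwork against control ranged at ZT3 from -0.03 to 0.42 for Lox and -0.14 to 0.16 for Loxl2, and at ZT12 from -0.06 to 0.22 for Fbln5. The interaction ranged from -0.36 to 0.4 for Fbn1 and -0.38 to 0.03 for Mfap5, and the depot difference from -0.43 to 0.02 for Fbln5. The cause was not tested. Without a filter the median of all genes moved to 0.11 for shiftwork against control at ZT3, and to -0.12 for the interaction.

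No pairing of samples with the same replicate number was seen. In no comparison was every correlation of their deviations over 0.1 (lowest -0.22, highest 0.242). With 3 samples a group these correlations cannot exclude a pairing. Sample numbers that recur in both depots were not used to pair samples in any fit. With the replicate number as a block, edgeR gave Sparc in controls an adjusted p of 0.0775. With 3 samples a group, differences smaller than the spread between libraries were not detectable, and no group of 3 was tested for outlying samples.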
